A study of Nicotiana tabacum with 6 samples.

Results

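The cryptochrome and photolyase family of tobacco was taken as the gene models whose description holds the word cryptochrome and whose mean normalized abundance over the 6 libraries was at least 1. Of the 69500 models, 15 have the word, and 9 of these reached the minimum. The models were chosen by their measured level over both plant materials together, so their levels are a description. The rule does not use the difference between the plant materials, but the family was chosen with earlier results of these data known.

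The libraries came from young leaves of Nicotiana tabacum seedlings, variety NC82, held at 4 °C for 24 h. There were 3 libraries from plants that overexpress NtPhyA, a gene named for the light receptor phytochrome A, and 3 from wild-type NC82. The labels do not give the promoter of the transgene, the number of transgenic lines or whether the replicates were separate plants. The p-values therefore rest on the variation among these 6 libraries alone, and the variation within each group could be technical in origin. Because every library was chilled, the comparison is between plant materials and not between cold and warmth.

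The summed values were 475581, 451603 and 440137 in overexpression replicates 1, 2 and 3, against 460319, 450972 and 568208 in wild-type replicates 1, 2 and 3. Wild-type replicate 3 thus stood apart in its total. No read totals were used here. From the smallest values of rarely detected models, the deepest library was estimated at 1.32 times the depth of the shallowest. Models named phytochrome A/B/C/D/E, leaving out descriptions that hold regulat or interact, were 5. They summed to 2.86, 1.86 and 1.15 in the overexpression libraries, against 2.83, 1.70 and 1.33 in the wild-type libraries. Their means were 1.96 in overexpression and 1.95 in wild type, so these models showed no rise in the overexpression libraries. The sources used here do not say whether reads of the transgene fall on any of them. The overexpression is therefore taken from the labels alone. Leaf mesophyll markers, 283 models described as chlorophyll-binding, photosystem or Rubisco small-subunit proteins, were abundant and summed to between 22029 and 61036 in overexpression libraries and between 19281 and 46123 in wild-type libraries.

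Cryptochromes are blue-light receptors that carry a flavin, FAD, in a fold shared with DNA photolyases. In plants they restrain seedling stem elongation under blue light, act in the timing of flowering and set the circadian clock, in part by holding back the COP1 ubiquitin ligase that also stands downstream of phytochromes. Photolyases use the same flavin and the energy of light to split pyrimidine dimers made by ultraviolet light.

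By their descriptions, the 9 models fell into 3 kinds. All 6 models described as plant cryptochrome reached the minimum. Of these, Nitab4.5_0007455g0010, Nitab4.5_0003380g0010 and Nitab4.5_0000421g0020 also carry the term cryptochrome C-terminal, named for the region through which plant cryptochromes signal. Nitab4.5_0000232g0110, Nitab4.5_0001005g0100 and Nitab4.5_0000044g0250 are described as plant cryptochrome without that term, which does not show that they lack the region. The other 3, Nitab4.5_0002433g0070, Nitab4.5_0001879g0150 and Nitab4.5_0006854g0010, are described only by the photolyase N-terminal and FAD-binding domains and are called photolyase-domain models here. The files give no symbol for any of them, and no identifier matched the RefSeq table used here, so no model is equated with a named CRY or photolyase gene. Tobacco is an allotetraploid with many near-identical gene copies, and how reads were divided between copies is uncertain.

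The photolyase kinds with an assigned class did not exceed 0.86 in any library. Of the 4 models with only the 2 photolyase domains, 3 reached the minimum and Nitab4.5_0003011g0090 was above 0 in 1 library, at 0.13 in wild-type replicate 1. The model nearest below the minimum was Nitab4.5_0003534g0090, a class 2 photolyase, the kind that repairs cyclobutane pyrimidine dimers in plants. It stood at 0.30, 0.86 and 0.37 in overexpression libraries, against 0.40, 0.11 and 0.46 in wild-type libraries. The other class 2 model, Nitab4.5_0010237g0040, did not exceed 0.22 in any library. Nitab4.5_0000919g0070, of the DASH kind, which in Arabidopsis repairs single-stranded DNA in organelles, reached 0.27 in overexpression replicate 2 and 0.14 in wild-type replicate 2. Nitab4.5_0000970g0030, of class 1 without a plant cryptochrome description, was at 0.31, 0 and 0.22 in overexpression libraries and listed at 0 in all wild-type libraries. Nitab4.5_0006693g0060, whose description joins the photolyase domain to a cytochrome P450, was listed at 0 throughout. The lowest model inside the minimum was Nitab4.5_0000044g0250, with a mean of 4.83, and the highest outside it had a mean of 0.417, so no model lay near the threshold.

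Abundance was concentrated in 3 models. Nitab4.5_0007455g0010, Nitab4.5_0002433g0070 and Nitab4.5_0000232g0110 had means of 40.7, 38.6 and 36.7 over the 6 libraries and together made up between 59.8% and 64.8% of the family sum in overexpression libraries, against 58.7% to 67.3% in wild-type libraries. Their order could not be resolved, since each stood above the next in 3 of 6 libraries. Nitab4.5_0001879g0150 followed at 23.4 and stood below Nitab4.5_0000232g0110 in 5 of 6 libraries. Nitab4.5_0006854g0010, at 13.1, was below it in all 6 libraries and level with Nitab4.5_0003380g0010, at 12.3, which it exceeded in 3 of 6. Nitab4.5_0000421g0020, Nitab4.5_0001005g0100 and Nitab4.5_0000044g0250 closed the order at 8.28, 7.11 and 4.83. Of these, Nitab4.5_0001005g0100 exceeded Nitab4.5_0000044g0250 in all 6 libraries, while Nitab4.5_0000421g0020 exceeded Nitab4.5_0001005g0100 in 4. The ranges over libraries overlapped for each of the 8 neighbouring pairs in this order. Among the 17962 tested models, those with a mean of at least 1, the most abundant member exceeded 87.1% and the least abundant 44.0%.

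**Figure D1:**
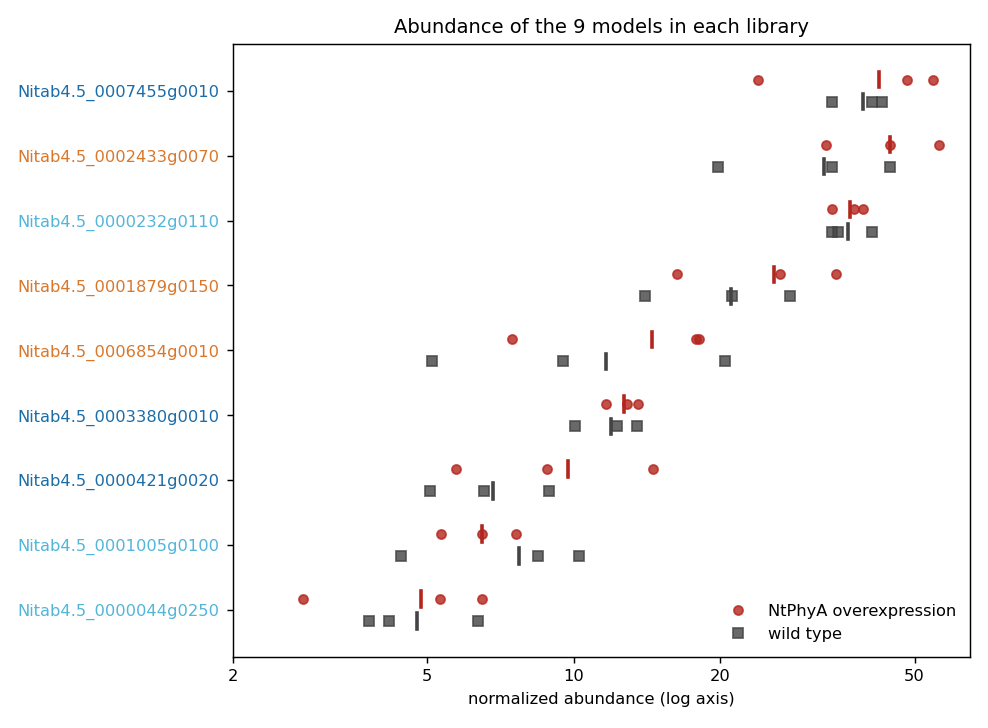
Normalized abundance (log axis) of the 9 cryptochrome and photolyase models in each library, with NtPhyA overexpression as circles above wild type as squares. Short vertical lines are group means (n = 3 each). Names in dark blue are plant cryptochromes with the C-terminal description, in light blue those without it, and in orange photolyase-domain models. Overexpression and wild-type values overlap in all 9 rows.

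No member of the family passed the test between NtPhyA-overexpressing and wild-type leaves. With limma on log2(value + 1) and Benjamini-Hochberg adjustment over 17962 models, 0 of 9 members passed an adjusted p of 0.05, against 1 model, or 0.00557%, of all tested. No member had an unadjusted p below 0.05, where 2.82% of all tested models did. The 3 overexpression and 3 wild-type values overlapped in each of the 9 members, whereas 7.87% of all tested models had groups that did not overlap. Of the members, 7 of 9 had a log2 difference above 0, against 48.3% of all tested models, and their median difference was 0.09 against -0.01 over all tested models. That count was 8 of 9 under either other scaling of the libraries, 5 of 9 without overexpression replicate 2 and 3 of 9 without wild-type replicate 3. The median over all tested models moved too, from -0.01 to 0.07 with equal totals and to 0.0024 with median-of-ratios size factors. The member that changed sign under these scalings, Nitab4.5_0000044g0250, went from -0.01 to 0.071 and 0.0030. Leaving out overexpression replicate 2 gave an overall median of -0.03, and leaving out wild-type replicate 3 gave 0.00026. With 9 members that share libraries, the count is a description. Leaf mesophyll markers leaned the same way, with 124 of 153 tested models above 0 and a median of 0.33, as did dividing-cell models, with 77 of 102 above 0, a median of 0.35 and 18 whose overexpression values all exceeded the wild-type values. Of the other marker lists, terpene synthases had 16 of 20 above 0, with a median of 0.53. Pollen-named models had 26 of 47 above 0, with a median of 0.02. These include expansins, cell-wall proteins described with a pollen allergen domain, so the list is not a marker of pollen alone. Vascular models leaned the other way, with 10 of 29 above 0 and a median of -0.15, and the 1 tested root model was at -0.07. The part of any of these cell types in the members' differences was not tested.

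Among the plant cryptochromes with the C-terminal description, Nitab4.5_0007455g0010 stood at 48.18, 54.65 and 23.88 in overexpression replicates 1 to 3, against 42.95, 40.90 and 33.93 in wild-type replicates 1 to 3. Overexpression replicate 3 was the lowest of the 6 libraries, and the other overexpression libraries were the highest. On the log2 scale it differed by 0.03 ± 0.35 (SE; limma adjusted p = 0.999; 95% confidence interval -0.80 to 0.85). Nitab4.5_0000421g0020 stood at 14.57, 8.84 and 5.75 in overexpression libraries, against 8.89, 6.56 and 5.09 in wild-type libraries. Only overexpression replicate 1 lay above the wild-type range. Its difference of 0.39 ± 0.37 (SE; limma adjusted p = 0.999) was 0.08 without overexpression replicate 1, and its interval ran from -0.47 to 1.26. Nitab4.5_0003380g0010 was steadier, at 11.64, 12.85 and 13.56 in overexpression libraries and 12.26, 13.51 and 10.08 in wild-type libraries. Its group means of 12.7 ± 0.97 and 11.95 ± 1.74 in overexpression and wild type (SD, n = 3 each) differed by less than the spread in wild type.

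Among the plant cryptochromes without the C-terminal term, Nitab4.5_0000232g0110 was the least variable member. It stood at 33.84, 39.23 and 37.65 in overexpression libraries, against 34.85, 40.86 and 33.90 in wild-type libraries. The groups covered the same range, with a log2 difference of 0.02 ± 0.23 (SE; limma adjusted p = 0.999). Its interval, from -0.52 to 0.55, was the narrowest of the 9 and spans ratios from 0.697 to 1.47 on the value + 1 scale. Nitab4.5_0001005g0100 stood at 7.64, 6.50 and 5.34 in overexpression libraries, against 10.27, 8.45 and 4.43 in wild-type libraries. It had the lowest log2 difference of the family, -0.16 ± 0.34 (SE; limma adjusted p = 0.999), and the overexpression values lay within the wild-type range. Nitab4.5_0000044g0250, the least abundant member, stood at 6.50, 5.33 and 2.79 in overexpression libraries and 6.36, 4.19 and 3.81 in wild-type libraries, with a difference of -0.01 ± 0.34 (SE; limma adjusted p = 0.999).

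The photolyase-domain models had positive differences that did not pass the test. Nitab4.5_0002433g0070 stood at 56.03, 44.52 and 32.87 in overexpression replicates 1 to 3, against 44.44, 33.82 and 19.75 in wild-type replicates 1 to 3. The highest library was overexpression replicate 1 and the lowest wild-type replicate 3, with the others interleaved. Its difference of 0.47 ± 0.36 (SE; limma adjusted p = 0.999) was the highest of the family, with an interval from -0.38 to 1.33, and was 0.16 without wild-type replicate 3. Nitab4.5_0001879g0150 stood at 34.47, 26.51 and 16.31 in overexpression libraries, against 27.84, 21.11 and 14.03 in wild-type libraries. The order of its libraries was that of Nitab4.5_0002433g0070, except that wild-type replicate 1 stood above overexpression replicate 2. Its difference was 0.27 ± 0.37 (SE; limma adjusted p = 0.999), and leaving out 1 library gave 0.039 (overexpression replicate 1), 0.56 (overexpression replicate 3), 0.49 (wild-type replicate 1) or 0.023 (wild-type replicate 3). Nitab4.5_0006854g0010 stood at 18.06, 17.86 and 7.47 in overexpression libraries, against 20.41, 9.50 and 5.13 in wild-type libraries. It varied most of the 9, 3.98-fold between its highest and lowest library, both wild type, and its difference was 0.38 ± 0.53 (SE; limma adjusted p = 0.999).

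**Figure D2:**
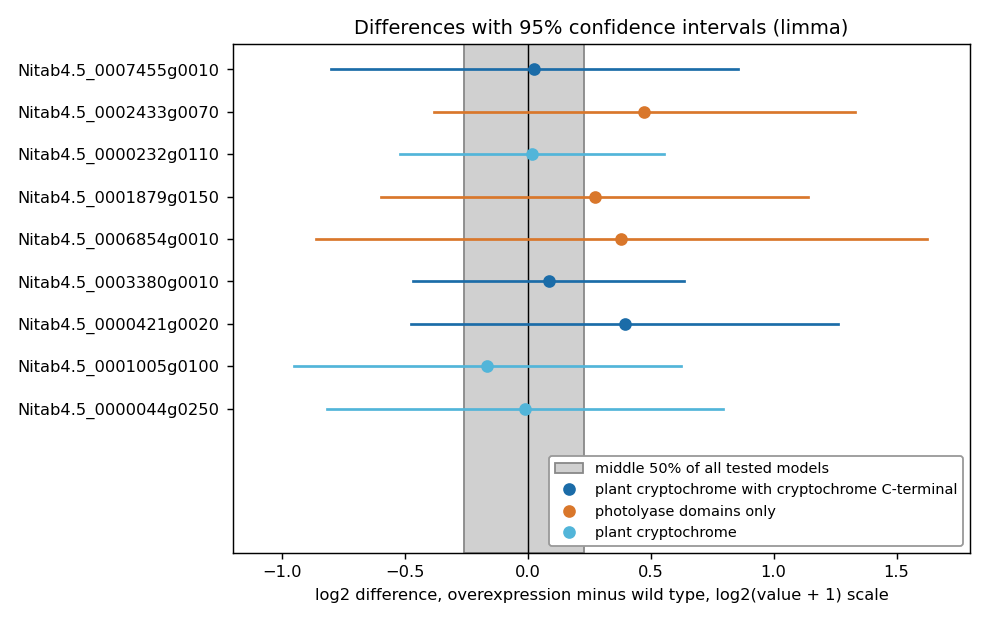
Log2 difference of each member, NtPhyA overexpression minus wild type in log2(value + 1) units, with limma's 95% confidence interval (n = 3 each). The grey band is the middle 50% of the 17962 tested models, from -0.26 to 0.23. All 9 intervals include 0, and the estimates run from -0.16 to 0.47.

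Summed over the 9 members, the family stood at 230.9, 216.3 and 145.6 in overexpression replicates 1 to 3, against 208.3, 178.9 and 130.2 in wild-type replicates 1 to 3. The groups overlapped, and the ratio of the means, 198 ± 46 in overexpression over 172 ± 39 in wild type (SD, n = 3 each), was 1.15. The photolyase-domain models summed to 84.7 ± 26.2 in overexpression and 65.3 ± 26.9 in wild type, and the plant cryptochromes to 113 ± 21 in overexpression and 107 ± 14 in wild type. The photolyase-domain share of the family sum ranged from 38.9% to 47.0% in overexpression libraries and from 29.9% to 44.5% in wild-type libraries.

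In 7 of 9 members replicate 3 was the lowest library in both materials, a pattern noticed after the values were seen. Among all tested models 24.4% had it, and the same 24.4% held for the 7747 tested models whose means lay within the members' range. Of the tested mesophyll markers, 110 of 153 had it. The 2 exceptions were Nitab4.5_0000232g0110 and Nitab4.5_0003380g0010, for which replicate 3 was lowest in wild type alone. Their coefficients of variation over the 6 libraries were 8.08% and 10.7%, against 26.5% to 49.4% in the other 7 members. The median over tested models in the members' range was 30.8%, and 1.28% and 3.54% of those models varied less than these 2 cryptochromes. Without both libraries numbered 3, no member was called and the ratio of family sums was 1.16.

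**Figure D3:**
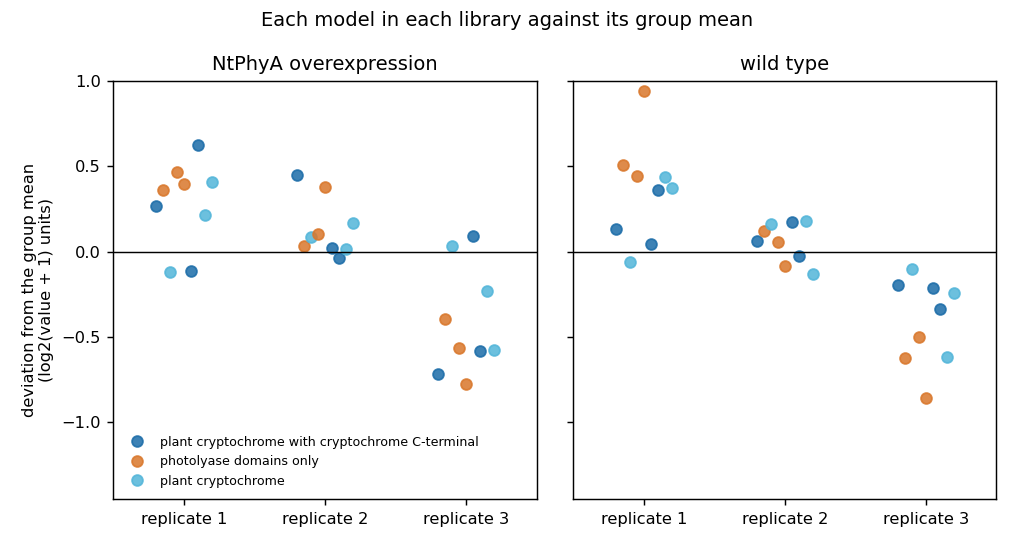
Deviation of each member from the mean of its own group in each library, in log2(value + 1) units, with NtPhyA overexpression on the left and wild type on the right. Each point is 1 model, coloured by kind. Points of replicate 3 lie below 0 for 7 of 9 models in overexpression and for all 9 in wild type.

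The leaf mesophyll markers varied between libraries with the photolyase-domain models. The markers summed to 61036, 38957 and 22029 in overexpression replicates 1, 2 and 3, against 46123, 27484 and 19281 in wild-type replicates 1, 2 and 3. The photolyase-domain models summed to 108.6, 88.9 and 56.7 in the same overexpression libraries, against 92.7, 64.4 and 38.9 in the wild-type libraries. Both sums put the 6 libraries in the same order, with overexpression replicate 1 highest and wild-type replicate 3 lowest. The plant cryptochrome sums were 122.4, 127.4 and 89.0 in overexpression libraries and 115.6, 114.5 and 91.2 in wild-type libraries. They did not keep this exact order, but both libraries numbered 3 were lowest here too. Single members with exactly this order were Nitab4.5_0001879g0150, a photolyase-domain model, and Nitab4.5_0000421g0020, a plant cryptochrome. Of all tested models, 2.85% had it. In bulk leaf RNA, fewer cells of a type and less RNA per cell cannot be told apart, and the part of the mesophyll markers in these values was not tested. The sums of the 5 marker lists for other cells did not share the order. Dividing-cell models summed to 4260, 2927 and 2819 in overexpression libraries and 2677, 2392 and 3113 in wild-type libraries, a list that also took in 4 ribosome recycling factors. Terpene synthases, enriched in glandular trichomes, summed to 373, 508 and 1052 in overexpression libraries, against 320, 614 and 455 in wild-type libraries. Pollen-named models, a list that also took in expansins, summed to 1124 to 1603 in overexpression and 954 to 1759 in wild type. Vascular models summed to 409 to 571 in overexpression and 266 to 787 in wild type, and root ones to 7.11 to 12.8 in overexpression and 10.1 to 12.5 in wild type.

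**Figure D4:**
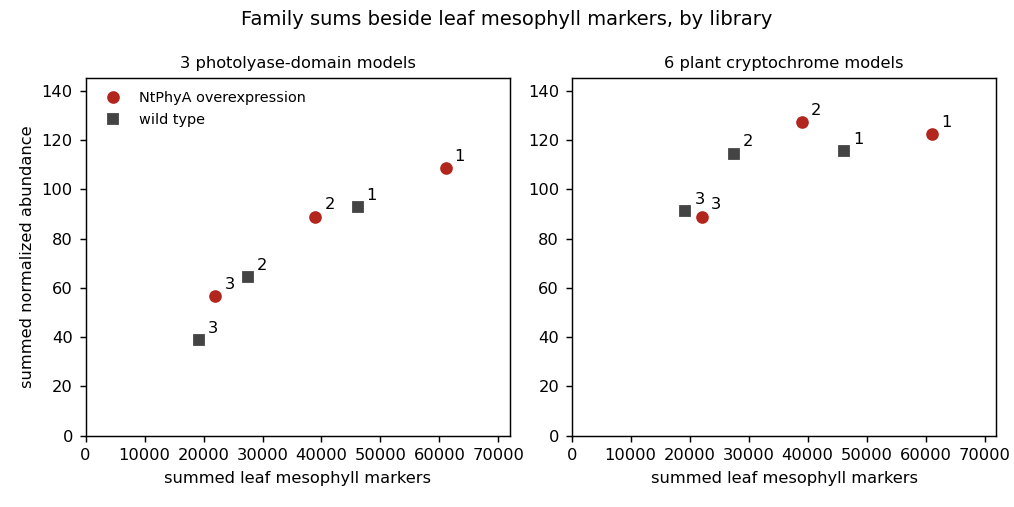
Summed normalized abundance of the 3 photolyase-domain models (left) and the 6 plant cryptochromes (right) against the summed normalized abundance of the leaf mesophyll markers, 1 point per library. Circles are NtPhyA overexpression, squares are wild type and digits are replicate numbers. The photolyase-domain sum runs from 38.9 to 108.6 in the order of the markers. The cryptochrome sum lies between 89.0 and 127.4 and does not keep the exact order. Both libraries numbered 3 are lowest in each panel.

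The 5 described models most like the most abundant cryptochrome, Nitab4.5_0007455g0010, were found by Pearson correlation of log2(value + 1) over the 6 libraries among 8077 described models with a mean of at least 5. They were a BSD domain protein, Nitab4.5_0005725g0010 (r = 0.993), a UV excision repair protein of the Rad23 family, Nitab4.5_0001569g0120 (r = 0.992), a pentatricopeptide repeat protein, Nitab4.5_0009717g0030 (r = 0.982), a BAG domain protein, Nitab4.5_0001306g0030 (r = 0.981), and a POX and homeobox domain protein, Nitab4.5_0000077g0060 (r = 0.980). Each was chosen as closest among 8077 over 6 points that share their libraries and depths, so the values describe likeness and nothing more. The Rad23 model, a family that in yeast and plants hands damaged DNA to nucleotide excision repair, stood at 6.65, 7.28 and 3.07 in overexpression libraries, against 5.63, 5.64 and 4.90 in wild-type libraries. Overexpression replicate 3 was the lowest library of all 5 models, as of the cryptochrome, which their choice by correlation over the same libraries favours.

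Genes that act beside the family had no call either. By limma, 0 models of the 6 lists below passed the adjusted threshold. The unadjusted p was below 0.05 for 2 light-signalling models, 1 circadian model and 0 models of each other list, apart from 1 expansin caught by the repair pattern. Counts without overlap compare with 7.87% of all tested models, and medians with -0.01. Other photoreceptors were matched by words such as phytochrome, phototropin and UVR8, leaving out descriptions that hold regulat or interact. Of the 10 matched models 2 were tested, both phytochromes, 1 higher and 1 lower. Receptors described by other domain names could be missed, so their levels are not shown by this list. Nitab4.5_0016503g0010, a phytochrome-domain model, stood at 6.55, 1.34 and 2.71 in overexpression libraries and 5.96, 2.06 and 0 in wild-type libraries. Nitab4.5_0009346g0010, of the phytochrome A/B/C/D/E description, stood at 1.60, 0.83 and 0.58 in overexpression libraries and 1.75, 0.81 and 0.71 in wild-type libraries. In both models the groups overlapped.

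The light-signalling list, mostly B-box zinc fingers with DET1 and COP9 signalosome subunits, had 36 tested models, of which 15 had positive and 21 negative differences, 0 were called and 4 had groups that did not overlap (median log2 difference -0.07). B-box proteins act downstream of cryptochromes and phytochromes, and COP1 controls the stability of several of them. The smallest unadjusted p belonged to a B-box and CCT protein, Nitab4.5_0011858g0010, at 35.40, 40.11 and 58.96 in overexpression libraries, against 21.06, 29.51 and 19.65 in wild-type libraries. All overexpression values exceeded all wild-type values (log2 difference 0.90 ± 0.30, SE; limma adjusted p = 0.999). A B-box protein without CCT, Nitab4.5_0001680g0030, went the other way, at 39.25, 34.68 and 16.96 in overexpression libraries against 48.34, 70.50 and 63.64 in wild-type libraries, and here too the groups did not overlap (log2 difference -1.05 ± 0.36, SE; limma adjusted p = 0.999). The circadian list, made largely of CCT domain proteins and GIGANTEA, had 28 tested models, of which 15 are also in the light-signalling list, so the counts of the lists are not independent. Of the 28, 18 had positive differences, 3 had groups that did not overlap and 0 were called (median 0.12). The models of smallest p in it, both shared, were Nitab4.5_0011858g0010 and the B-box and CCT protein Nitab4.5_0008442g0020. The second of these stood at 11.66, 12.62 and 16.39 in overexpression libraries and 6.83, 10.57 and 9.54 in wild-type libraries.

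Routes of DNA repair that need no light had 58 tested models, 38 with positive and 20 with negative differences, 2 with groups that did not overlap and 0 called (median 0.12). This count leaves out 22 tested expansins, cell-wall proteins that the text pattern had caught through the letters xpa. With them the list had 80 tested models, 48 with positive differences, and the smallest p values in it belonged to the expansins Nitab4.5_0010422g0030, at 5.22 ± 0.87 in overexpression and 1.58 ± 0.86 in wild type, and Nitab4.5_0000042g0030, at 2.20 ± 0.69 in overexpression and 1.03 ± 0.14 in wild type (SD, n = 3 each). Without them, a pentatricopeptide repeat protein with a MutS2 C-terminal domain, Nitab4.5_0007282g0060, was at 4.31 ± 1.01 in overexpression and 2.39 ± 1.01 in wild type (SD, n = 3 each). A mismatch repair protein of the Pms1 type, Nitab4.5_0013887g0020, stood at 9.74, 7.22 and 7.44 in overexpression libraries, against 6.56, 5.82 and 3.65 in wild-type libraries, with no overlap (log2 difference 0.55 ± 0.29, SE; limma adjusted p = 0.999). DNA polymerases and their loaders had 27 tested models, 11 with positive differences and 0 called (median -0.05). Among them, subunit 4 of DNA polymerase delta, Nitab4.5_0001769g0050, was at 3.19 ± 0.95 in overexpression and 5.68 ± 2.19 in wild type, and a large subunit of replication factor C, Nitab4.5_0003551g0050, at 3.52 ± 1.08 in overexpression and 1.59 ± 1.44 in wild type (SD, n = 3 each).

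The flavin and folate list was matched by words for the cofactors that the family binds, FAD and, as a light-gathering antenna, a folate. The list is not limited to enzymes that make them, since the word riboflavin also matches the name of a protein fold. It had 61 tested models once 14 tested molybdopterin enzymes, caught through the letters pterin, were left out. Of these, 33 had positive and 28 negative differences, 2 had groups that did not overlap and 0 were called (median 0.03). With the molybdopterin enzymes it had 75, of which 42 had positive differences, and an aldehyde oxidase, Nitab4.5_0005439g0030, at 3.64 ± 0.21 in overexpression and 1.96 ± 0.89 in wild type (SD, n = 3 each). The folate enzyme with pterin pyrophosphokinase and dihydropteroate synthase domains, Nitab4.5_0000231g0060, stood at 1.03, 1.40 and 1.89 in overexpression libraries, against 2.90, 2.38 and 2.68 in wild-type libraries, with no overlap (log2 difference -0.59 ± 0.26, SE; limma adjusted p = 0.999). Nitab4.5_0003703g0010, matched through a riboflavin synthase-like barrel but described as a ferric reductase, was at 55.8 ± 13.1 in overexpression and 33.9 ± 12.5 in wild type (SD, n = 3 each).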

How the data were processed

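RNA was measured in 6 libraries of chilled tobacco leaf, 3 per plant material, grouped by the labels' titles. The authors deposited 1 table per plant material, which holds for each library a normalized abundance of every gene model. HISAT2, StringTie and RSEM were used, per the submitters' processing notes, while the sources used here do not state their versions, the genome build or whether the unit is TPM or FPKM. Nothing says that the tables were normalized together, so levels set across them assume comparable libraries. The authors' group means were not used.

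Group differences were estimated on log2(value + 1) for the 17962 models averaging at least 1. The fit used limma 3.58.1 (R 4.3.3) with a robust, trended empirical Bayes step, group as the only term and 4 residual degrees of freedom. The log2 scale understates differences of low values. Calls used a Benjamini-Hochberg adjusted p below 0.05. The members and lists were chosen with earlier results of these data known. The repair and cofactor lists were reworded after their matches were seen. All members were named, with the 2 models of smallest p in each list and the 5 most alike by correlation. Alternatives were a pseudocount of 0.1, other filters and scalings, a replicate block and leaving out libraries.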

Additional observations from a re-analysis of the deposited data

How the results depend on the processing

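No member was called under any of the 13 alternatives, with a smallest adjusted p of 0.773 (limma). Over all tested models the count of 1 became 0 with a pseudocount of 0.1, no filter, a replicate block, equal totals, median-of-ratios size factors or both libraries numbered 3 left out, and also when any 1 library was left out. The replicate block gave 0 called members and an adjusted p of 0.773 for Nitab4.5_0002433g0070. With the block, 1183 models had an unadjusted limma p below 0.05, against 507 without it. Deviations of same-numbered libraries correlated at 0.56, -0.11 and 0.42 for numbers 1, 2 and 3. Overexpression replicate 1 and wild-type replicate 3 correlated at -0.44, and overexpression replicate 3 and wild-type replicate 1 at -0.58. The labels do not say that the numbers mark pairs, and group alone was the planned term. What same-numbered libraries share was not tested. Of 117 member differences under alternatives, 101 kept their direction and 16 changed sign. Nitab4.5_0000044g0250 became 0.071 with equal totals, 0.0030 with size factors and 0.16 without both libraries numbered 3, where Nitab4.5_0000232g0110 became -0.049 and Nitab4.5_0003380g0010 -0.068. With 1 library left out, the ranges were -0.22 to 0.28 (Nitab4.5_0000044g0250), -0.034 to 0.10 (Nitab4.5_0000232g0110), -0.022 to 0.17 (Nitab4.5_0003380g0010), -0.47 to 0.0535 (Nitab4.5_0001005g0100), -0.049 to 0.85 (Nitab4.5_0006854g0010) and -0.20 to 0.38 (Nitab4.5_0007455g0010). The cause was not tested. The ratio of family sums, overexpression over wild type, stayed between 1.02 (wild-type replicate 3 left out) and 1.30 (overexpression replicate 3 left out). Read depth is unknown beyond the relative steps.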
